A study of Homo sapiens with 8 samples.

Results

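The genes examined here encode the replacement histone variants H2A.X (H2AFX), H2A.Z (H2AFZ and H2AFV), macroH2A (H2AFY), H2A.J (H2AFJ), H3.3 (H3F3A and H3F3B) and the linker histone H1.10 (H1FX), together with CENPA, the centromeric H3 variant. They were taken by gene symbol from the deposited tables, 9 of the 23885 genes in all, and where a symbol had several transcripts, among 18 listed in all, the most counted one stands for the gene. All 9 passed the filter on low counts that left 15723 genes for testing. The measurements came from HCT-116, a human colorectal carcinoma cell line, and the series title concerns activation of the p53 transcriptional program and sensitivity to Cdk7 inhibitors. Cells received 40 µM 5-fluorouracil (5-FU), a thymidylate synthase inhibitor that is also built into RNA and DNA, or its vehicle DMSO for 12 h, were washed, and then received 2.5 µM 3-MB-PP1 or DMSO for 4 h. The second compound, 3-MB-PP1, blocks kinases whose ATP pocket has been enlarged by mutation. The labels used here do not state which kinase allele the cells carry or whether they are 1 clone, and every group, the vehicle group included, is labelled as the same line. The 4 groups were thus 5-FU then 3-MB-PP1, 5-FU then DMSO, DMSO then 3-MB-PP1, and DMSO then DMSO, with 2 libraries of total RNA each. The labels number the libraries of a group but do not say that they came from separate cultures. Each p-value is thus set against differences between these libraries, pooled in part across genes, that may be technical alone.

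Most histone protein of a dividing cell comes from clustered genes whose messages are made in S phase and end in a stem-loop in place of a poly(A) tail. Replacement variants are encoded by single genes outside these clusters, their messages are generally polyadenylated, and chaperones and remodellers place the proteins in chromatin outside replication: HJURP loads CENPA at centromeres, HIRA and DAXX place H3.3, and the SRCAP and p400 complexes exchange H2A.Z. H2A.X is phosphorylated next to DNA breaks, macroH2A carries a large extra domain and is common in silent chromatin, and H1 proteins bind the linker DNA between nucleosomes.

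The libraries held 10580607 to 16763422 counts on genes, apart from the library of DMSO then 3-MB-PP1 replicate 1, which held 50503811. Logged levels within a group correlated at 0.993 to 0.994 across genes. Levels below are CPM, a gene's count relative to the library's size, after TMM scaling, which sets the average change over all genes near 0. The marker and CDKN1A values of this paragraph are CPM without TMM scaling. ERCC spike-in RNAs made up 2.18% to 4.16% of the authors' totals, and their share differed up to 1.76-fold between replicates of a group. Scaling by them moved the median log2 fold change of all genes by 0.12 for 5-FU alone, 0.20 for 3-MB-PP1 alone, -0.12 for 3-MB-PP1 after 5-FU, -0.19 for 5-FU before 3-MB-PP1 and -0.32 for the interaction. The 7 epithelial markers summed to 4256 to 4313 CPM after both drugs, 4828 to 4856 CPM after 5-FU alone, 2917 to 2925 CPM after 3-MB-PP1 alone and 2717 to 2794 CPM in vehicle cells. Among these, KRT8 gave the largest part, at 1221 to 2200 CPM, and VIL1 was at 0.31 CPM or less. The 8 markers of other cell types summed to 19.1 to 25.9 CPM in all libraries. Most of this was COL1A1, at 12.0 to 20.1 CPM, and PECAM1, at 4.82 to 7.51 CPM. COL1A2 was at 0 in each library. The p53 target CDKN1A had 850 and 818 CPM after both drugs, 1592 and 1483 CPM after 5-FU alone, 173 and 164 CPM after 3-MB-PP1 alone, and 191 and 193 CPM in vehicle cells.

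After 5-FU alone, 8 of the 9 variant genes fell and none rose, while H2AFJ did not pass the test. Across all tested genes 22.7% fell, 21.2% rose and 43.9% changed in either direction, by edgeR's quasi-likelihood test at an adjusted p under 0.05. The falls ranged from 3.58-fold for CENPA, 2.84-fold for H2AFZ and 2.66-fold for H1FX down to 1.14-fold for H2AFY. The median log2 change of the 9 was -0.50, against 0.0027 over all genes. After 3-MB-PP1 alone 6 of the 9 fell and none rose, where 16.9% of all genes fell, 11.6% rose and 28.5% changed. When 3-MB-PP1 was added after 5-FU, H2AFZ, H2AFY and H3F3A rose relative to 5-FU alone, where 15.7% of all genes rose, and H3F3B fell, where 17.2% fell, making 4 of the 9 against 32.9% of all genes in either direction. In the other view of the same libraries, 5-FU given before 3-MB-PP1 lowered 6 of the 9 relative to 3-MB-PP1 alone, where 19.8% of all genes fell, 19.6% rose and 39.5% changed. After both drugs 6 of the 9 were lower than in vehicle cells, where 26.2% of all genes were lower, 23.9% higher and 50.1% different in either direction. These comparisons share groups, so their counts are not independent of one another.

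**Figure D1:**
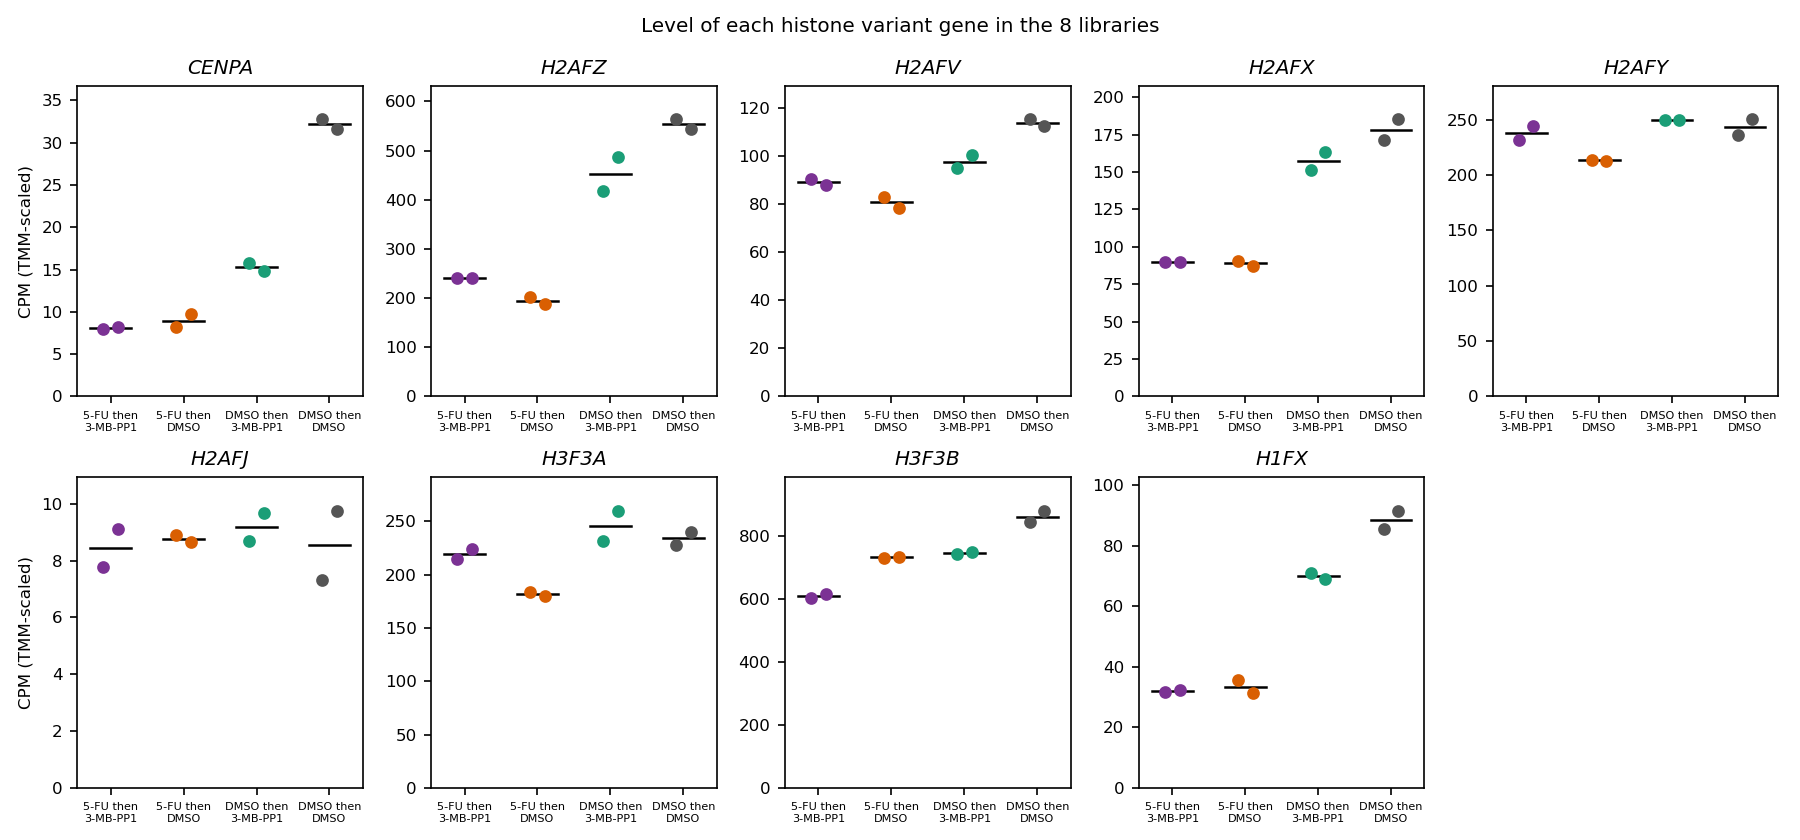
TMM-scaled CPM (y axis, from 0) of the 9 genes in each of the 8 libraries. Points are libraries, black bars the mean of the 2 libraries of a treatment. CENPA sits at 8 to 10 CPM after 5-FU with or without 3-MB-PP1, near 15 CPM after 3-MB-PP1 alone and above 31 CPM in vehicle cells, while H2AFJ overlaps in all 4 groups.

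CENPA, which replaces H3 in centromeric nucleosomes and marks where kinetochores form, was the variant with the largest change in each comparison with vehicle. The kept transcript, NM_001809, lies at chr2:27008882-27017455 on the plus strand of hg19. It had 7.99 and 8.26 CPM after 5-FU then 3-MB-PP1, 8.22 and 9.71 CPM after 5-FU then DMSO, 15.8 and 14.9 CPM after DMSO then 3-MB-PP1, and 32.8 and 31.6 CPM after DMSO alone. The vehicle libraries were the highest, the 3-MB-PP1 libraries lay near the middle, and the 5-FU groups were lowest and overlapped each other. The log2 change was -1.84 ± 0.11 (SE) after 5-FU alone (adjusted p = 4.18e-13) and -1.05 ± 0.10 after 3-MB-PP1 alone (adjusted p = 1.19e-08). After both drugs it was -1.99 ± 0.12 (adjusted p = 3.15e-13), which is less than the sum of the single changes. Adding 3-MB-PP1 to cells that had received 5-FU changed CENPA by -0.15 ± 0.14 (95% interval -0.43 to 0.14), so a further fall of about the size seen without 5-FU lay outside the interval. The difference between the 3-MB-PP1 effects with and without 5-FU, the interaction term of the same model, was 0.91 ± 0.17 on the log2 scale (adjusted p = 0.00213). In a bulk sample, fewer cells with CENPA message and less message per cell cannot be told apart.

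Both transcripts listed for CENPA moved alike. NM_001042426 averaged 5.62 RPKM after both drugs, 6.04 RPKM after 5-FU alone, 10.6 RPKM after 3-MB-PP1 alone and 22.0 RPKM in vehicle cells, against 5.67, 6.25, 10.8 and 22.0 RPKM for NM_001809 in the same order. CENPA was also the only one of the 9 whose fall after 5-FU alone and after both drugs passed the test under ERCC scaling, with log2 changes of -1.73 and -1.98. Its changes of -0.87 after 3-MB-PP1 alone and -1.11 for 5-FU before 3-MB-PP1 did not pass under that scaling.

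Genes of CENPA loading and the inner kinetochore, which hold the chaperone HJURP, the Mis18 complex and the CENP proteins that sit on CENPA nucleosomes, fell after 5-FU alone in 18 of 20 cases, with none higher and a median log2 change of -1.06. The shares of all tested genes given above, such as 22.7% lower after 5-FU alone, are the background for this and the other lists. The log2 change was -2.50 for CENPQ, -2.14 for MLF1IP (CENPU), -1.84 for CENPI and -1.80 for CENPK. After 3-MB-PP1 alone 3 of the 20 fell, with log2 changes of -0.39 for CENPO, -0.37 for CENPN and -0.31 for CENPM, and 17 did not pass. That is no larger a share than the 16.9% of all tested genes that fell. The median of -0.08 turns to 0.15 under ERCC scaling. CENPA's own change of -1.05 was larger than any of these. HJURP, named for its role after its values were seen, had 104 and 101 CPM after 3-MB-PP1 alone against 101 and 111 CPM in vehicle cells, a log2 change of -0.05 ± 0.06 (adjusted p = 0.65). After 5-FU alone it had 35.3 and 32.1 CPM and a log2 change of -1.66 ± 0.07 (adjusted p = 3.89e-16). After both drugs 18 of the 20 were below vehicle, led by CENPQ at -1.99. When 3-MB-PP1 followed 5-FU, 7 of the 20 rose and 2 fell, at 0.60 for OIP5 (MIS18B), 0.50 for CENPQ, 0.47 for ITGB3BP (CENPR) and -0.52 for CENPP. Without replicate 2 of both drugs 2 rose and 1 fell. The interaction term passed for MLF1IP at 0.53, CENPN at 0.35 and RBBP7 at 0.31, but for 1 gene without replicate 1 of 5-FU alone and for 0 without replicate 2 of both drugs, without replicate 1 of vehicle or by limma. 5-FU before 3-MB-PP1 lowered 18 of the 20. Under ERCC scaling 3 of the 20 fell after 5-FU alone, 4 after both drugs and 3 for 5-FU before 3-MB-PP1, and 0 passed in the other comparisons.

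The genes whose 3 changes from vehicle lay nearest to CENPA's, by the root mean square difference of the log2 values among 10402 expressed genes, were the clustered histone gene HIST1H4C at 0.16, the recombination gene RAD54L at 0.26 and the spindle checkpoint kinase TTK at 0.26. All 3 changes share the vehicle libraries. The same measure gave far closer neighbours for H2AFZ, where CENPM stood at 0.024, TOP2A at 0.034 and MMS22L at 0.053.

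Promoter sequences are shown for the 4 genes that fell most after 5-FU, CENPA, H2AFZ, H1FX and H2AFX, and for H2AFJ, which did not pass in any comparison. They come from RefSeq (GRCh38.p14), run from 250 bases before the gene start to 30 bases after it, and were found for all 9 genes. The windows are chr2:26785806-26786085 (plus strand), chr4:99950246-99950525, chr3:129316257-129316536 and chr11:119095436-119095715 (minus strand) and chr12:14774155-14774434 (plus strand). Capitals mark the letters TTTGAA (as in the cell cycle homology region), CCAAT, and 4 spellings of an E2F site (TTTCCCGC, TTTGGCGC, TTTCGCGC and TTTGCCGC), each searched on both strands, so that TTCAAA and ATTGG are the same letters read from the other strand.
CENPA: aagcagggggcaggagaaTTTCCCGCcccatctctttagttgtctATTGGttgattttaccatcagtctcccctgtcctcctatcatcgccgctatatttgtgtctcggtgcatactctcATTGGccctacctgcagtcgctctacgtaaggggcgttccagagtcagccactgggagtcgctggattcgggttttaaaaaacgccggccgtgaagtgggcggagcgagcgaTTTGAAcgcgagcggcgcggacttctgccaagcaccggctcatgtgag
H2AFZ: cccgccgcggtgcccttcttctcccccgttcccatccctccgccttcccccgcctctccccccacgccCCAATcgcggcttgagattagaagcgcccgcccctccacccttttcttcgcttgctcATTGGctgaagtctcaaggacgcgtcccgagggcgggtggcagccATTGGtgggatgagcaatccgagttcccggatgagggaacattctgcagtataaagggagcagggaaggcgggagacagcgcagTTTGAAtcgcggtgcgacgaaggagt
H1FX: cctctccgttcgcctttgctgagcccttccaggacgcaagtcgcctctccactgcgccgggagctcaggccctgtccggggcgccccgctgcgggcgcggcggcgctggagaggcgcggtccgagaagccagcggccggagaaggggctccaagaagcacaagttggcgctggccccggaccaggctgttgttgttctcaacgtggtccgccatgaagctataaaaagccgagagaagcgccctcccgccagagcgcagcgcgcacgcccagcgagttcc
H2AFX: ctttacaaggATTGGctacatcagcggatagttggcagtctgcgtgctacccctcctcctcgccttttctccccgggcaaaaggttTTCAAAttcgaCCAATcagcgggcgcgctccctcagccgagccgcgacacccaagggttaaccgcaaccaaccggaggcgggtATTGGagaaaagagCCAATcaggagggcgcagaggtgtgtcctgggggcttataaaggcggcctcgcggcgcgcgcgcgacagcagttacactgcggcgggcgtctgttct
H2AFJ: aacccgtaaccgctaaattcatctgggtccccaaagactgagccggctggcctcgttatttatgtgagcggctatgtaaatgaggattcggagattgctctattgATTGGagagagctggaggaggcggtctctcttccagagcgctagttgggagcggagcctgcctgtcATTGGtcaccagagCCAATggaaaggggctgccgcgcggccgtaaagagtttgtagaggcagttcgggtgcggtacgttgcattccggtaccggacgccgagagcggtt
TTTGAA occurred in CENPA, 18 bases before the start, in H2AFZ, 5 bases after it, and in H2AFX, 164 bases before it. It was in no window of the other 6 genes and in 14.5% of all 35116 promoters of this length. CCAAT occurred 2 times in CENPA, 3 times in H2AFZ, 4 times in H2AFX, 3 times in H2AFJ and not in H1FX. It also occurred 4 times in H2AFV, 4 times in H3F3B and in some windows of H2AFY and H3F3A. Of all promoters 33.6% held it. The E2F letters were found only in CENPA, 232 bases before the start, and in 3.14% of all promoters. TATAAA stood 31 bases before the start in H2AFX, H2AFZ and H1FX and 29 bases before it in H3F3B, against 11.2% of all promoters. H1FX, which fell 2.66-fold after 5-FU, held none of the first 3 motifs in this window. These are matches of letters and say nothing of whether a factor binds.

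H2AFZ, the main source of H2A.Z, was the most abundant of the 9 per length in vehicle cells. Its transcript NM_002106 lies at chr4:100869244-100871512 on the minus strand. It had 241 and 241 CPM after both drugs, 202 and 188 CPM after 5-FU alone, 418 and 488 CPM after 3-MB-PP1 alone, and 564 and 543 CPM in vehicle cells. None of the 4 groups overlapped another, and the lowest levels were after 5-FU alone. The log2 change was -1.50 ± 0.06 after 5-FU alone (adjusted p = 7.43e-17) and -0.29 ± 0.06 after 3-MB-PP1 alone (adjusted p = 0.00034). After 5-FU, 3-MB-PP1 raised H2AFZ by 0.30 ± 0.06 (adjusted p = 0.000409). The 3-MB-PP1 effect thus had opposite signs in the presence and absence of 5-FU, and their difference was 0.60 ± 0.08 (adjusted p = 5.79e-05). The libraries of 3-MB-PP1 alone differed, and the change after 3-MB-PP1 alone was -0.18 without replicate 1 and -0.40 without replicate 2. Under ERCC scaling it was -0.03 and did not pass, and the interaction of 0.55 by limma on RPKM did not pass.

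H2AFV encodes the second H2A.Z protein, H2A.Z.2, and its rows gave different answers. The kept transcript NM_138635 (chr7:44866488-44887725, minus strand) had 90.4 and 88.0 CPM after both drugs, 83.0 and 78.4 CPM after 5-FU alone, 94.9 and 100.5 CPM after 3-MB-PP1 alone, and 115 and 112 CPM in vehicle cells. These groups did not overlap, and vehicle was the highest. Its log2 change was -0.50 ± 0.06 after 5-FU alone (adjusted p = 2.49e-07) and -0.23 ± 0.06 after 3-MB-PP1 alone (adjusted p = 0.00538). The fall after 3-MB-PP1 alone was lost without DMSO then 3-MB-PP1 replicate 1 (-0.18) or DMSO then DMSO replicate 1 (-0.20). This change did not pass by limma on RPKM either and was 0.01 under ERCC scaling. After both drugs the change of the long transcript was -0.35 ± 0.06 (adjusted p = 3.77e-05), and the interaction was 0.37 ± 0.09 (adjusted p = 0.0127). The other 4 transcripts of H2AFV begin at the same place and stop at 44873213, so NM_138635 alone extends to the downstream end of the gene and is 3755 bases long against 1429 for the next most counted, NM_012412. NM_012412 had 67.9 and 65.5 CPM after both drugs, 56.0 and 50.1 CPM after 5-FU alone, 74.0 and 77.3 CPM after 3-MB-PP1 alone, and 73.3 and 71.2 CPM in vehicle cells. Fitted in place of the long row, it did not fall after 3-MB-PP1 alone (log2 change 0.06 ± 0.07, adjusted p = 0.534), and its change after both drugs of -0.12 did not pass. Comparing both drugs with 5-FU alone, the short row rose by 0.33 (adjusted p = 0.000776), where the long row changed by 0.15 (adjusted p = 0.0767).

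The counts of the long row beyond those of the short one were also taken for each library. This excess was 22.6 and 22.5 CPM after both drugs, 27.0 and 28.3 CPM after 5-FU alone, 21.0 and 23.2 CPM after 3-MB-PP1 alone, and 42.0 and 41.1 CPM in vehicle cells. It was highest in vehicle cells in each replicate and lay close together in the groups that received 3-MB-PP1. The tables do not say how reads of shared exons were divided, so the excess is a difference between listed counts and was given no test. No gene of the tables overlaps H2AFV.

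**Figure D2:**
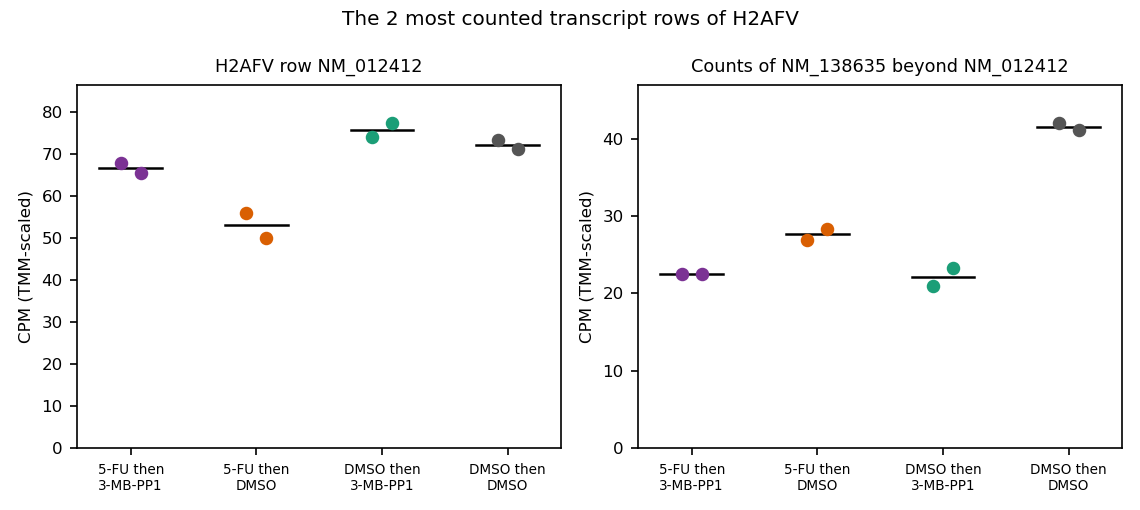
TMM-scaled CPM (y axes, from 0) of the H2AFV row NM_012412 (left) and of the counts listed for NM_138635 beyond it (right) in the 8 libraries, with points for libraries and bars for group means. The short row is lowest after 5-FU alone, at 50.1 to 56.0 CPM, while the excess is near 42 CPM in vehicle cells and at 28.3 CPM or less in the other groups.

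Per length, H2AFZ made up most of the H2A.Z message in every group. Its share of the summed RPKM of H2AFZ and H2AFV was 91.5 ± 0.16% after both drugs, 90.6 ± 0.11% after 5-FU alone, 94.8 ± 0.33% after 3-MB-PP1 alone and 95.1 ± 0.04% in vehicle cells (SD, n = 2 each). The share was lower after 5-FU than in vehicle cells in every library. The exact permutation test of 2 against 2 libraries gave p = 0.3333, the smallest it can give. The short H2AFV rows had more RPKM than the long one, for example 49.5 RPKM for NM_012412 against 29.6 RPKM for NM_138635 in vehicle cells, so the share depends on the row.

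Genes of H2A.Z exchange, covering the SRCAP, p400 and INO80 remodellers and the eviction chaperone ANP32E, had 3 of 13 members higher after 5-FU alone and 5 lower, with a median of -0.14. The higher count was 1 without replicate 1 of vehicle, and the lower count was 3 by limma. Of all tested genes 21.2% rose and 22.7% fell after 5-FU alone, so the share of higher genes was near that background. Log2 changes were -1.23 for ANP32E, -1.01 for YEATS4, a subunit of both exchange complexes, -0.56 for the actin-related subunit ACTL6A and 0.49 for DMAP1. After 3-MB-PP1 alone 4 of the 13 fell and none rose, against 16.9% and 11.6% of all genes. The median of -0.06 turns to 0.15 under ERCC scaling. The 4 were the ATPase INO80 at -0.71, the acetyltransferase KAT5 at -0.48, YEATS4 at -0.39 and the ATPase SRCAP at -0.29. When 3-MB-PP1 followed 5-FU, 3 fell, INO80 at -0.65, KAT5 at -0.60 and SRCAP at -0.39, and ANP32E rose at 0.28, a call lost without replicate 2 of both drugs. Of all genes 17.2% fell and 15.7% rose in that comparison. After both drugs 2 of the 13 were higher and 7 lower than in vehicle cells, against 23.9% and 26.2% of all genes. With 5-FU before 3-MB-PP1, 2 were higher and 5 lower than with 3-MB-PP1 alone, against 19.6% and 19.8%. The share of higher genes was thus below that of all genes in these last comparisons. For 5-FU before 3-MB-PP1 the higher count was 1 without replicate 1 of both drugs, without replicate 1 of 3-MB-PP1 alone, by DESeq2 or by limma. The interaction passed for ANP32E alone, at 0.39, and for 0 genes by limma, without replicate 2 of both drugs, or without replicate 1 of any of the other 3 groups. Under ERCC scaling 0 of the 13 passed in any comparison.

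H2AFX encodes H2A.X, whose serine near the C terminus is phosphorylated at DNA breaks. NM_002105 lies at chr11:118964585-118966177 on the minus strand. It had 89.9 and 90.1 CPM after both drugs, 90.7 and 87.1 CPM after 5-FU alone, 152 and 163 CPM after 3-MB-PP1 alone, and 171 and 185 CPM in vehicle cells. The 5-FU groups overlapped each other and lay well below the other groups. Its log2 change was -1.0 ± 0.06 after 5-FU alone (adjusted p = 3.85e-13) and -0.98 ± 0.06 after both drugs (adjusted p = 8.15e-13). The change of both drugs over 5-FU alone was 0.02 ± 0.06 (95% interval -0.11 to 0.15). The change after 3-MB-PP1 alone, -0.18 ± 0.06 (adjusted p = 0.0182), did not pass without DMSO then 3-MB-PP1 replicate 1 or DMSO then DMSO replicate 2 (-0.13 each) and was 0.04 under ERCC scaling. It did not pass by DESeq2 or by limma on RPKM either.

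H2AFX is known to give both a polyadenylated message and one that ends in the histone stem-loop. The letters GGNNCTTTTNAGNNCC, which spell the core of that stem-loop on the sense strand, were found in the GENCODE v29 transcript of H2AFX, at base 555 of 1614, and in no transcript of the other 8 genes. They were found in 52 of 19669 protein-coding genes (0.264%), and in 7 of the 30 clustered H1, H2A and H3 genes, whose annotated transcripts need not include the end. The site in H2AFX is shown with those of a clustered H2A gene and a clustered H3 gene, with the whole matched run in capitals.
H2AFX: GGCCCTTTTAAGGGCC
HIST1H2AC: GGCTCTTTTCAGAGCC
HIST1H3H: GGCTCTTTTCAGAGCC
The clustered H1, H2A and H3 genes, of which 23 of 30 were tested, are the replication-dependent counterparts of the variants. After 5-FU alone 23 of 23 fell, with a median of -2.68, and after 3-MB-PP1 alone 21 of 23, with a median of -0.74. The variant medians were -0.50 and -0.21, and the difference between the lists was not tested. HIST1H3J was at -3.45 after 5-FU alone and HIST1H3A at -0.99 after 3-MB-PP1 alone. When 3-MB-PP1 followed 5-FU, 16 of the 23 fell and none rose, with a median of -0.37, led by HIST2H3D at -0.85. Here 10 fell, with a median of -0.20, without replicate 1 of both drugs, and 19, with a median of -0.63, without its replicate 2. The count was also 10 without replicate 1 of 5-FU alone and by DESeq2. After both drugs and for 5-FU before 3-MB-PP1, 23 of 23 fell, with medians of -3.08 and -2.42. The interaction passed for 7, all positive, with 12 without replicate 1 of both drugs, 0 without its replicate 2, 2 to 8 without any other library, 2 by DESeq2 and 0 by limma. Under ERCC scaling 22 of the 23 fell after 5-FU alone and after both drugs and 21 for 5-FU before 3-MB-PP1, against 0 after 3-MB-PP1 alone, with 3-MB-PP1 after 5-FU and for the interaction.

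Genes that phosphorylate, read or remove H2A.X fell after 5-FU alone in 8 of 13 cases, with a median of -0.36. Log2 changes were -0.69 for the reader MDC1, -0.67 for the kinase ATR and -0.64 for the tyrosine kinase BAZ1B, and 0.77 for PPM1D, a phosphatase that removes the mark and a known p53 target. After 3-MB-PP1 alone BAZ1B, at -0.24, was the 1 gene of the 13 that passed, a share below the 16.9% of all genes that fell. When 3-MB-PP1 followed 5-FU 4 of the 13 rose, ATR at 0.36, PRKDC at 0.25, SSRP1 at 0.21 and SUPT16H at 0.17, and none fell, while the median of 0.04 turns to -0.07 under ERCC scaling. PPM1D remained above vehicle after both drugs, at 0.76, where 7 of the 13 were lower. In the comparison of 5-FU before 3-MB-PP1 it rose, at 0.70, and 6 fell. The interaction passed for PRKDC alone, at 0.24, and for 0 genes by limma or without any 1 library other than replicate 2 of 5-FU alone or of 3-MB-PP1 alone, where it passed for 2. Under ERCC scaling 0 of the 13 passed in any comparison.

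H2AFY, which encodes macroH2A1, varied little. NM_138610 (chr5:134670071-134734928, minus strand) had 232 and 244 CPM after both drugs, 213 and 213 CPM after 5-FU alone, 250 and 250 CPM after 3-MB-PP1 alone, and 236 and 250 CPM in vehicle cells. Only the libraries of 5-FU alone lay below all the others. The log2 change after 5-FU alone was -0.19 ± 0.05 (adjusted p = 0.00402), and it did not pass without DMSO then DMSO replicate 2 (-0.15). Between both drugs and 5-FU alone it was 0.16 ± 0.05 (adjusted p = 0.0211), and this call was lost without replicate 2 of both drugs (0.11) or without either library of 5-FU alone (0.15 and 0.16). Its 4 transcripts averaged 102 to 111 RPKM after 5-FU alone and 113 to 125 RPKM in vehicle cells. The log2 change of H2AFY2, which encodes macroH2A2, was -0.57 after 5-FU alone (adjusted p = 7.58e-07).

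H2AFJ encodes H2A.J, a variant that differs from canonical H2A mainly at its C terminus and is known to accumulate in senescent human fibroblasts. NM_177925 (chr12:14927270-14930936, plus strand) had 7.75 and 9.11 CPM after both drugs, 8.88 and 8.63 CPM after 5-FU alone, 8.69 and 9.69 CPM after 3-MB-PP1 alone, and 7.32 and 9.75 CPM in vehicle cells. All groups overlapped. Its counts were 94 to 144 in 7 libraries and 446 in the deepest. Its log2 change after 5-FU alone was 0.03 ± 0.15 (adjusted p = 0.88), with a 95% interval of -0.28 to 0.35 that excludes a fall of the size seen in H2AFX but not one of the size seen in H2AFY or H3F3B. The intervals of the other 4 comparisons of groups lay between -0.39 and 0.37.

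H3.3 is made from H3F3A and H3F3B, which encode the same protein. H3F3A (NM_002107, chr1:226250408-226259703, plus strand) had 215 and 224 CPM after both drugs, 184 and 180 CPM after 5-FU alone, 232 and 260 CPM after 3-MB-PP1 alone, and 228 and 240 CPM in vehicle cells. The libraries of 5-FU alone were the lowest, and those of 3-MB-PP1 alone overlapped vehicle. H3F3B (NM_005324, chr17:73772515-73775860, minus strand) had 604 and 618 CPM after both drugs, 733 and 734 CPM after 5-FU alone, 744 and 751 CPM after 3-MB-PP1 alone, and 845 and 882 CPM in vehicle cells. Here the libraries of both drugs were the lowest, and no group overlapped another.

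The pair parted when 3-MB-PP1 was given. After 5-FU alone both fell, with log2 changes of -0.37 ± 0.06 for H3F3A (adjusted p = 9.38e-06) and -0.24 ± 0.04 for H3F3B (adjusted p = 7.04e-05). With 3-MB-PP1 after 5-FU, H3F3A rose by 0.27 ± 0.06 (adjusted p = 0.000798) and H3F3B changed by -0.26 ± 0.04 (adjusted p = 4.6e-05). After 3-MB-PP1 alone H3F3A changed by 0.06 ± 0.06 (95% interval -0.05 to 0.18) and H3F3B by -0.21 ± 0.04 (adjusted p = 0.000585), which becomes 0.0040 under ERCC scaling. After both drugs H3F3A was at -0.10 ± 0.06 (adjusted p = 0.171) and H3F3B at -0.50 ± 0.04 (adjusted p = 4.72e-10). The interaction of H3F3A was 0.21 ± 0.08 (adjusted p = 0.165) and that of H3F3B was -0.05 ± 0.06 (adjusted p = 0.701), so a difference of the 3-MB-PP1 effect with and without 5-FU was not shown for either. For 5-FU before 3-MB-PP1 the change was -0.29 ± 0.04 for H3F3B (adjusted p = 5.81e-06) and -0.16 ± 0.06 for H3F3A (adjusted p = 0.0267). The change of H3F3A did not pass without replicate 1 of both drugs (-0.13) or replicate 2 of 3-MB-PP1 alone (-0.08), nor by DESeq2 or limma. Without replicate 2 of 3-MB-PP1 alone its interaction was 0.28 and passed.

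The ratio within a library does not depend on how libraries are scaled. The share of H3F3A in the summed RPKM of H3F3A and H3F3B was 47.5% and 48.0% after both drugs, 39.0% and 38.4% after 5-FU alone, 44.3% and 46.9% after 3-MB-PP1 alone, and 40.8% and 41.0% in vehicle cells. The groups given 3-MB-PP1 had the highest shares and 5-FU alone the lowest, with no overlap between any groups. The log2 ratio of the genes was 0.53 higher after both drugs than after 5-FU alone and 0.28 higher after 3-MB-PP1 alone than in vehicle cells. An exact permutation test over 2 against 2 libraries gave p = 0.3333 for each, the smallest this design allows. Summed over both genes, H3.3 message was 423 and 439 RPKM after both drugs, 446 and 436 RPKM after 5-FU alone, 495 and 528 RPKM after 3-MB-PP1 alone, and 516 and 540 RPKM in vehicle cells.

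**Figure D3:**
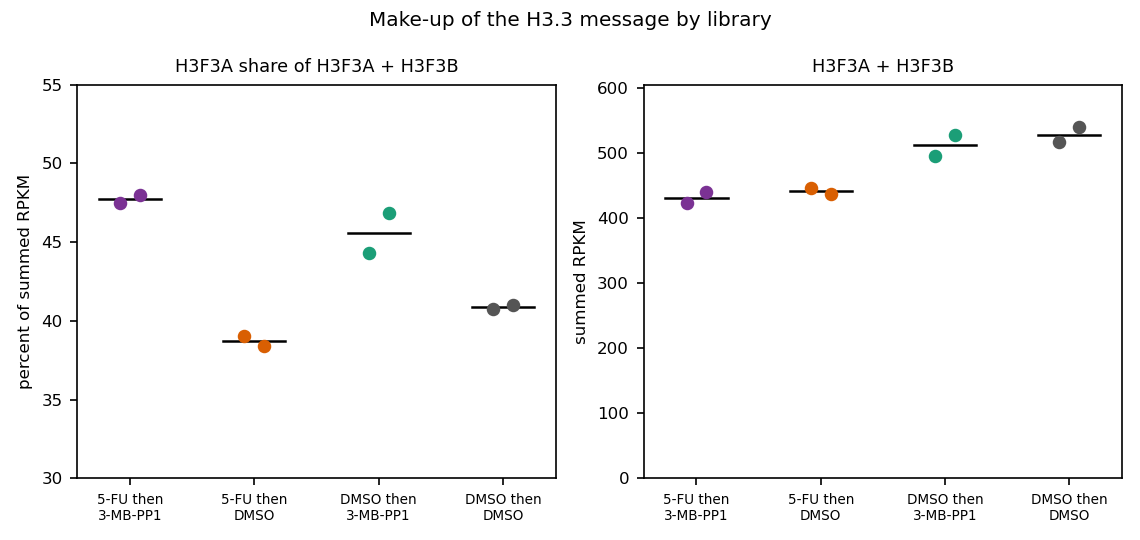
H3F3A share of the summed RPKM of H3F3A and H3F3B (left, y axis not from 0) and the summed RPKM of the pair (right, y axis from 0) in the 8 libraries, with points for libraries and bars for group means. The H3F3A share is 44.3% to 48.0% in the groups given 3-MB-PP1 and 38.4% to 41.0% in the others.

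Near-identical copies limit what the H3.3 counts can say, since how multiply mapped reads were treated is not given in the sources used here. LOC440926, listed on the same strand and overlapping H3F3A, had the same counts as H3F3A in every library. H3F3C, an intronless copy of H3F3B, had 62.2 and 60.1 CPM after both drugs, 76.7 and 77.5 CPM after 5-FU alone, 68.8 and 72.3 CPM after 3-MB-PP1 alone, and 86.1 and 85.1 CPM in vehicle cells. Its log2 change was -0.29 after 3-MB-PP1 alone and -0.33 when 3-MB-PP1 followed 5-FU, where H3F3B was at -0.21 and -0.26, and whether its reads come from H3F3B was not tested.

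The chaperones of H3 and H3.3 fell after 5-FU alone in 9 of 13 cases, with none higher and a median of -0.27. The genes with the largest falls were ASF1B at -2.74, CHAF1A at -2.56, CHAF1B at -1.84 and DEK at -1.44. ASF1B and the CHAF1 subunits are known from replication-coupled assembly. After 3-MB-PP1 alone 7 of the 13 fell and none rose, and 4 fell without replicate 1 of vehicle or by limma. The largest of these were in CHAF1A at -0.43 and in the chaperones DAXX at -0.41, ASF1A at -0.40 and HIRA at -0.28. The median was -0.19 and turns to 0.04 under ERCC scaling. When 3-MB-PP1 followed 5-FU, 4 rose and 4 fell, among them ASF1B at 0.43 and RBBP4 at 0.41 and, on the other side, DAXX at -0.35 and ASF1A at -0.30. Without replicate 2 of both drugs 2 rose and 1 fell, and without replicate 1 of 5-FU alone 2 rose and 3 fell. After both drugs 11 were lower than vehicle, led by CHAF1A at -2.76, and 8 fell for 5-FU before 3-MB-PP1. The interaction passed for ASF1B at 0.50, DEK at 0.41 and RBBP4 at 0.28, but for 1 gene without either library of vehicle or by DESeq2 and for 0 without replicate 2 of both drugs or by limma. Under ERCC scaling 3 of the 13 fell after 5-FU alone and after both drugs and 2 for 5-FU before 3-MB-PP1, and 0 passed elsewhere.

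H1FX encodes H1.10. NM_006026 (chr3:129033614-129035120, minus strand) had 31.7 and 32.3 CPM after both drugs, 35.5 and 31.3 CPM after 5-FU alone, 70.9 and 68.9 CPM after 3-MB-PP1 alone, and 85.6 and 91.5 CPM in vehicle cells. The 5-FU groups overlapped and were below the others. The log2 change was -1.41 ± 0.07 after 5-FU alone (adjusted p = 1.41e-14), -0.34 ± 0.07 after 3-MB-PP1 alone (adjusted p = 0.00034) and -1.47 ± 0.08 after both drugs (adjusted p = 1.39e-14). With 3-MB-PP1 after 5-FU it was -0.06 ± 0.08 (95% interval -0.23 to 0.11). C3orf47, on the opposite strand, overlaps H1FX, and whether counting used strand is not stated in the sources used here. It had 21 to 27 counts in 7 libraries and 106 in the deepest, with 1.32 to 2.14 CPM in all, and it did not pass in any comparison.

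Per length, the order of the 9 genes in vehicle cells ran from H2AFZ with 571 ± 15.4 RPKM, H3F3B with 312 ± 9.25 RPKM and H3F3A with 216 ± 7.83 RPKM through H2AFY at 124 RPKM, H2AFX at 109 RPKM, H1FX at 57.4 RPKM and H2AFV at 29.6 RPKM to CENPA at 22.0 ± 0.58 RPKM and H2AFJ at 2.28 ± 0.46 RPKM. No neighbours in this order overlapped. After 5-FU alone H3F3B came first with 270 ± 2.58 RPKM and H2AFZ second with 205 ± 13.1 RPKM, and H1FX at 22.1 RPKM overlapped H2AFV at 21.4 RPKM. This place of H2AFV rests on its long row, since its other 4 rows had 32.3 to 37.0 RPKM after 5-FU alone, above H1FX. After 3-MB-PP1 alone H2AFZ led again with 482 ± 54.4 RPKM, and no neighbours overlapped. The other H2AFV rows, at 46.7 to 53.8 RPKM, were level with or above H1FX at 46.7 RPKM there. After both drugs H2AFZ with 253 ± 1.46 RPKM stood just above H3F3B with 225 ± 4.58 RPKM.

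**Figure D4:**
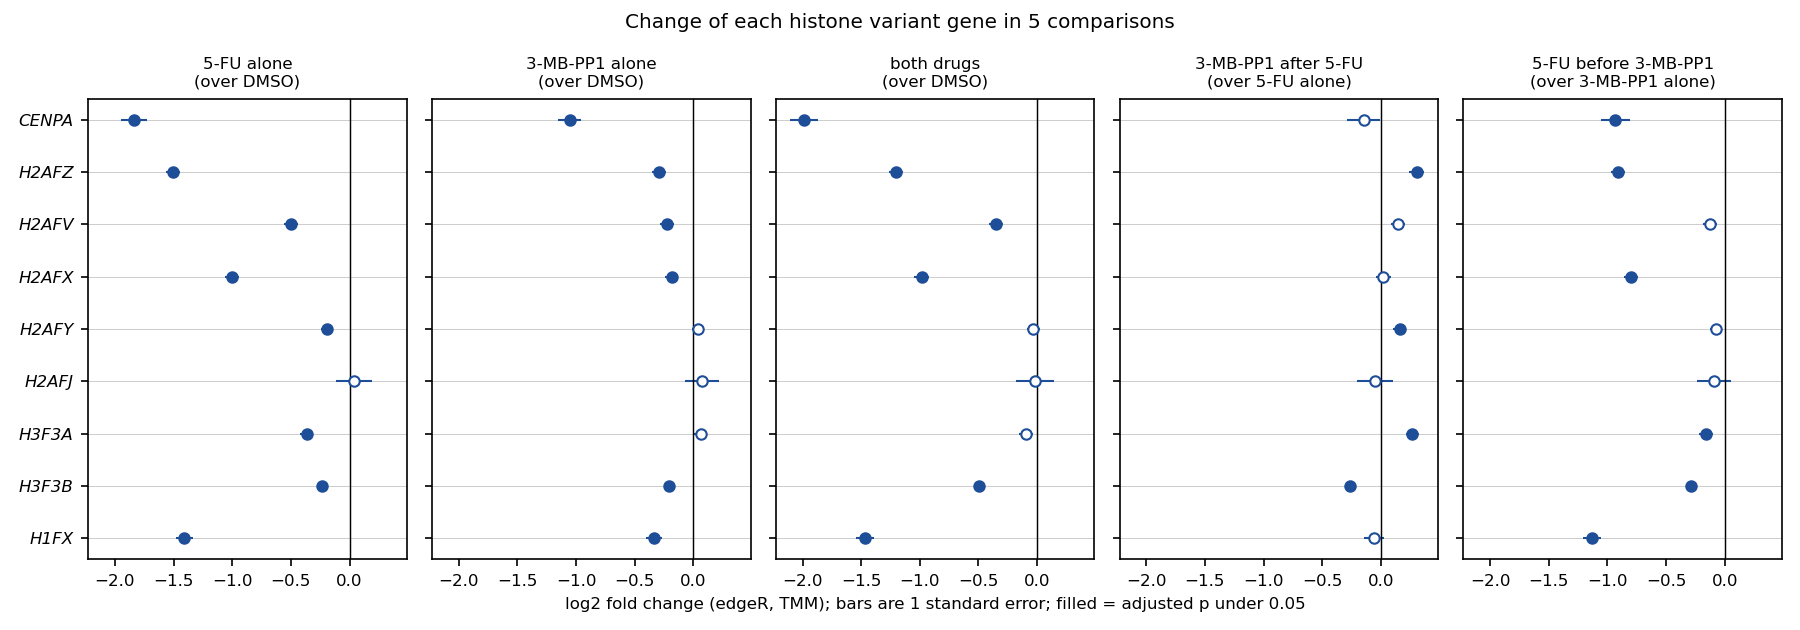
Log2 fold change (x axis) of the 9 genes (rows) in 5 comparisons, the treatment named first over the one in brackets, with bars of 1 standard error and filled points where the adjusted p is under 0.05. After 5-FU alone 8 points are filled and below 0, while with 3-MB-PP1 after 5-FU 3 filled points are above 0 and 1 below it. Under ERCC scaling the points of H2AFX, H2AFV and H3F3B after 3-MB-PP1 alone move to 0.04, 0.01 and 0.0040.

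The interaction term asked whether 3-MB-PP1 acted differently after 5-FU than without it. It passed for 3 of the 9 genes, CENPA, H2AFZ and H2AFV, all positive, where 2.12% of all genes were positive, 2.01% negative and 4.13% passed in either direction. The other 6 ranged from -0.12 for H2AFJ to 0.28 for H1FX. Under ERCC scaling CENPA was at 0.62, H2AFZ at 0.21 and H2AFV at 0.01, and none passed. The H2AFV call was also lost with the short row (0.27) and without 4 of the libraries, at 0.32 to 0.37. By limma on RPKM neither H2AFZ (0.55) nor H2AFV (0.32) passed.

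Of 16 further histone genes, many of them testis-specific, 5 had enough counts to be tested. HIST3H2BB, HIST3H2A and HIST1H1T carry the names of histone clusters, unlike H2AFY2 and H3F3C. After 5-FU alone 4 fell, the H2B gene HIST3H2BB at -2.43, HIST3H2A at -1.96, HIST1H1T at -1.43 ± 0.45 and H2AFY2 at -0.57. H3F3C, at -0.15, did not pass (adjusted p = 0.0514). By DESeq2 3 of the 5 fell. After 3-MB-PP1 alone 3 fell, HIST3H2BB at -0.96, HIST3H2A at -0.85 and H3F3C at -0.29. After both drugs and for 5-FU before 3-MB-PP1 all 5 fell, with HIST3H2BB at -3.29 and -2.33. By DESeq2 4 fell for 5-FU before 3-MB-PP1. When 3-MB-PP1 followed 5-FU the same 3 fell, at -0.87, -0.70 and -0.33. Under ERCC scaling 2 of the 5 fell after 5-FU alone, after both drugs and for 5-FU before 3-MB-PP1, and 0 passed in the other comparisons.

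**Figure D5:**
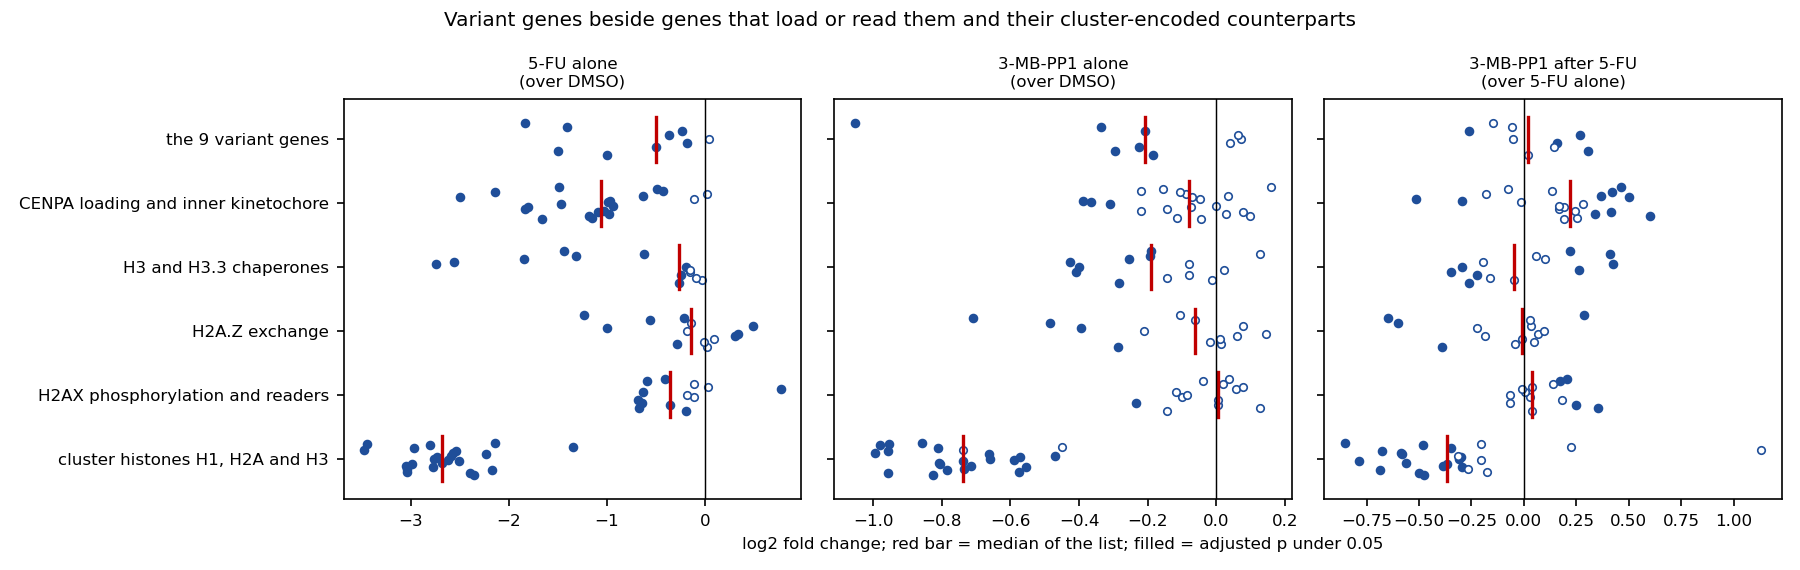
Log2 fold change (x axes, each with its own range) of the 9 variant genes and of 5 gene lists (rows) after 5-FU alone, after 3-MB-PP1 alone and with 3-MB-PP1 after 5-FU. Each point is a gene, filled where the adjusted p is under 0.05, and red bars are medians. The clustered histones lie furthest left after 5-FU alone, at a median of -2.68, against -0.50 for the variants. After 3-MB-PP1 alone the medians of the CENPA, chaperone and H2A.Z lists turn above 0 under ERCC scaling, at 0.15, 0.04 and 0.15.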

How the data were processed

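Total RNA of 8 libraries was depleted of rRNA and read as single ends, per the labels' protocols. TopHat2 2.0.13 and the build hg19 are named in the submitters' processing notes. The counting program, strand setting and treatment of multiply mapped reads are not stated in these sources. The deposited tables hold unnormalized whole read counts of the authors for each transcript, and RPKM values, which the authors scaled by transcript length and each library's total. Of 41643 transcript entries, 6260 had no symbol and 5902 of these were named through RefSeq. The entry with the highest mean count was kept for each of 23885 genes. The counts were fitted with edgeR 4.0.16 (R 4.3.3) in 1 model of 4 groups, with TMM scaling, filterByExpr (15723 genes kept), two-sided quasi-likelihood F tests with 4 residual degrees of freedom among libraries and Benjamini-Hochberg adjustment over all tested genes in each of 6 comparisons. These tests borrow spread across genes, which adds to the 4 residual degrees of freedom. The p-values and intervals of a gene therefore do not rest on the differences between its own libraries alone. Genes were called at an adjusted p under 0.05. Values after ± are standard errors beside log2 changes and SDs beside levels or shares. The code was tested on simulated data. DESeq2 1.42.0, limma 3.58.1 on log2(RPKM + 0.5) and log2(RPKM + 0.1), ERCC scaling, no filter, a replicate block, the second transcript of each gene and leaving out each library were the alternatives. The variant genes, lists and tests were chosen with earlier results of these data known. 1 further variant gene and 1 further list gene are not reported here. From each list up to 4 called genes per comparison with the largest changes could be named.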

Additional observations from a re-analysis of the deposited data

Results flagged for a closer look

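By the interaction term of the edgeR model, the effect of 3-MB-PP1 differed with and without earlier 5-FU for 3 of the 9 variant genes. Of all tested genes 4.13% passed in either direction and 2.12% were positive. For CENPA the difference was 0.91 on the log2 scale (adjusted p = 0.00213): the change with 3-MB-PP1 was -0.15 after 5-FU and -1.05 without it. For H2AFZ it was 0.60 (adjusted p = 5.79e-05): the gene rose by 0.30 after 5-FU and fell by 0.29 without it. For H2AFV it was 0.37 (adjusted p = 0.0127): the change was 0.15 after 5-FU and -0.23 without it, and the call did not hold with the shorter transcript. None of the 3 terms passed under ERCC scaling. By limma on RPKM the terms of H2AFZ (0.55) and H2AFV (0.32) did not pass. The H2AFV call was also lost when some single libraries were left out, at 0.32 to 0.37.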

How the results depend on the processing

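Of the 33 calls of a variant gene in a comparison, DESeq2 kept 31, no filter 33, the second transcript 30, limma on RPKM 28 with either pseudocount, and leaving out a library 30 to 32. ERCC scaling kept 2: called variant genes fell to 1 for 5-FU alone, 0 for 3-MB-PP1 alone, 1 for both drugs, and 0 for the interaction and for either drug over the other alone, and called genes overall to 243 for 5-FU alone, 112 for 3-MB-PP1 alone, 427 for both drugs, 53 for 3-MB-PP1 after 5-FU, 140 for 5-FU before 3-MB-PP1 and 0 for the interaction. For 3-MB-PP1 alone it turned H2AFX to 0.0395, H2AFV to 0.0126 and H3F3B to 0.0040, and the second transcript turned H2AFV to 0.0611. The spread of the spike-ins between replicates shown above enters these fits. For H2AFZ after 5-FU alone the standard error was 0.50 with ERCC scaling, against 0.06 with TMM. limma called 4 variant genes for 3-MB-PP1 alone and 1 for the interaction with either pseudocount, and 140 and 139 genes overall for the interaction. DESeq2 called 2682 genes for 3-MB-PP1 alone, 3383 for 3-MB-PP1 after 5-FU and 375 for the interaction. The cause of these shifts was not tested.

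Leaving out 1 library gave 7 to 8 variant genes and 5462 to 7032 genes for 5-FU alone, 4 to 6 and 2971 to 4563 for 3-MB-PP1 alone, 6 each time and 6552 to 8063 for both drugs, 3 to 4 and 3339 to 5373 for 3-MB-PP1 after 5-FU, 5 to 6 and 4527 to 6257 for 5-FU before 3-MB-PP1, and 2 to 4 and 248 to 921 for the interaction. The low of 4 for 3-MB-PP1 alone was without DMSO then 3-MB-PP1 replicate 1, and the high of 4 for the interaction without its replicate 2. Where 1 library of a group was left, it was assumed to vary like the other groups.

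Same-numbered libraries did not deviate together (correlations of -0.129 to 0.121 between groups), and a replicate block left the calls of variant genes as they were, 8, 6, 6, 4, 6 and 3 in the order above, with 6943, 4519, 7925, 5236, 6259 and 677 genes overall. With crossed numbers, chosen after seeing the data, 6 variant genes were called for 3-MB-PP1 alone.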
